A study of Mus musculus with 7 samples.

Results

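The microRNAs (miRNAs) bound to Ago2 in the plasma of control mice were described from 3 of the 7 libraries of the series, those from mice given phosphate-buffered saline (PBS) and sampled 4, 8 and 24 h later. The 3 libraries were chosen by their labels alone, and no measured value was used. The other 4 libraries came from mice at 4, 8 and 24 h and 2 weeks after status epilepticus (SE, a prolonged seizure) evoked by kainic acid, and enter only where a comparison is stated. The labels give the strain as c57 for all mice, with no transgene, and the methods give adult male C57BL/6JOlaHsd mice that carried a guide cannula and skull electrodes and received PBS or kainic acid into the amygdala. Mice with SE were also given a benzodiazepine. Whether controls received it is not given in the sources used here.

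Each library was made by immunoprecipitating Ago2 from a pool of plasma of 10 mice, 50 μL from each, and sequencing the small RNA that came with it. A pool hides differences between mice. With 1 library per time-point there were no replicates, so a change with time and a difference between libraries cannot be told apart, and the 3 libraries are not replicates of a condition. The authors kept only plasma below a limit of haemoglobin absorbance. In a pool of plasma, a release by more cells and a larger release per cell cannot be told apart.

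Mature miRNAs are short RNAs that are cut from hairpin precursors, and 1 of the 2 arms of a hairpin usually stays in an Argonaute protein as the guide. The guide pairs with target mRNAs mainly through its seed, bases 2 to 8 from the 5′ end, so miRNAs that share a seed form a family. In plasma, Ago2 is among the carriers that protect miRNAs from nucleases, and blood cells, endothelium and solid organs are all known sources of circulating miRNA.

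The sequences that made up most of the cargo beyond miR-486b-5p are shown here in the 5′ to 3′ direction with the seed in capitals. They are RefSeq mature sequences for the GRCm38.p6 assembly, which held 551 of the 640 miRNAs counted. Shown are the 8 most abundant families among miRNAs with a reference sequence and, within them, members that differ by few bases, since reads with up to 2 mismatches were accepted by the authors' aligner and close sequences may exchange reads.
miR-10b-5p: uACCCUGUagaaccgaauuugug
miR-10a-5p: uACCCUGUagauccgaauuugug
let-7f-5p: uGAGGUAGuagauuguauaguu
let-7a-5p: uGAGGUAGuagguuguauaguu
let-7i-5p: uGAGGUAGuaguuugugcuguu
miR-192-5p: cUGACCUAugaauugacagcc
miR-215-5p: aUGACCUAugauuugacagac
miR-92a-3p: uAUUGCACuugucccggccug
miR-92b-3p: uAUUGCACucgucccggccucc
miR-22-3p: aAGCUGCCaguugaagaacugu
miR-191-5p: cAACGGAAucccaaaagcagcug
miR-181a-5p: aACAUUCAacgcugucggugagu
miR-21a-5p: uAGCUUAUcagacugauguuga
From the 5′ end, miR-10a-5p and miR-10b-5p differed at 1 base, let-7a-5p and let-7f-5p at 1, miR-92a-3p and miR-92b-3p at 2, and miR-192-5p and miR-215-5p at 3. Among the miRNAs kept for the comparison of libraries, 24 pairs involving 29 miRNAs lay within 2 mismatches of each other, and the split of reads within such a pair is uncertain.

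The libraries of control 4, 8 and 24 h held 2043220, 3529563 and 3412752 counts. Apart from 42, 39 and 39 miRNAs with 1 to 5 counts, low counts gathered around 102, 60.2 and 55.1 counts in the same order. If this value is taken as the reads from 1 captured molecule, which the files do not state and which leaves the counts of 1 to 5 without an account, the libraries held about 19982, 58665 and 61945 estimated molecules. On that reading control 4 h was the least deeply sampled library, and 50 CPM (counts per 1000000 counts of a library), the study's limit of presence, corresponded to 0.999 molecules there, against 2.93 and 3.10 at 8 and 24 h. Intervals given below cover counting error only.

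A single miRNA, miR-486b-5p, held most of the counts. Its share of counts was 76.1% at 4 h (95% Wilson interval 76.0 to 76.1), 67.5% at 8 h (67.4 to 67.5) and 67.0% at 24 h (66.9 to 67.0). Control 4 h stood above the other 2, which differed little. The hairpin named Mir486 lies on chromosome 8 (23142555 to 23142682, plus strand, GRCm38) in an intron of Ank1, the gene of erythrocyte ankyrin. miR-486b-5p had no reference sequence, so whether its reads came from this hairpin was not checked. miR-486 is known as a miRNA of red blood cells. The entry miR-486a-5p, known to have the same mature sequence, had 0 counts in every control library, so the reads of the 2 entries cannot be told apart. The other erythroid miRNAs were scarce or uneven. miR-451a, known as among the most abundant miRNAs of red cells, had 3, 39 and 81 counts at 4, 8 and 24 h. miR-144-3p, cut from the same transcript as miR-451a, had 0, 667 and 1634 counts and miR-144-5p had 1, 850 and 731, so both had at most 1 count in control 4 h, the library with the highest share of miR-486b-5p. Whether red cells, recovery in the library or the assignment of reads set these values was not tested.

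With miR-486b-5p left out, 489145, 1147933 and 1126418 counts remained, and no other miRNA dominated in this way. The 10 most abundant others held 56.2%, 55.0% and 54.8% of the remaining counts at 4, 8 and 24 h, a narrow range. The most abundant 8 to 9 miRNAs were enough for 50% of these counts, 39 to 43 for 90% and 129 to 138 for 99%. Of the 10 highest miRNAs of each library 8 were common to all 3, and of the 20 highest 18 were.

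**Figure D1:**
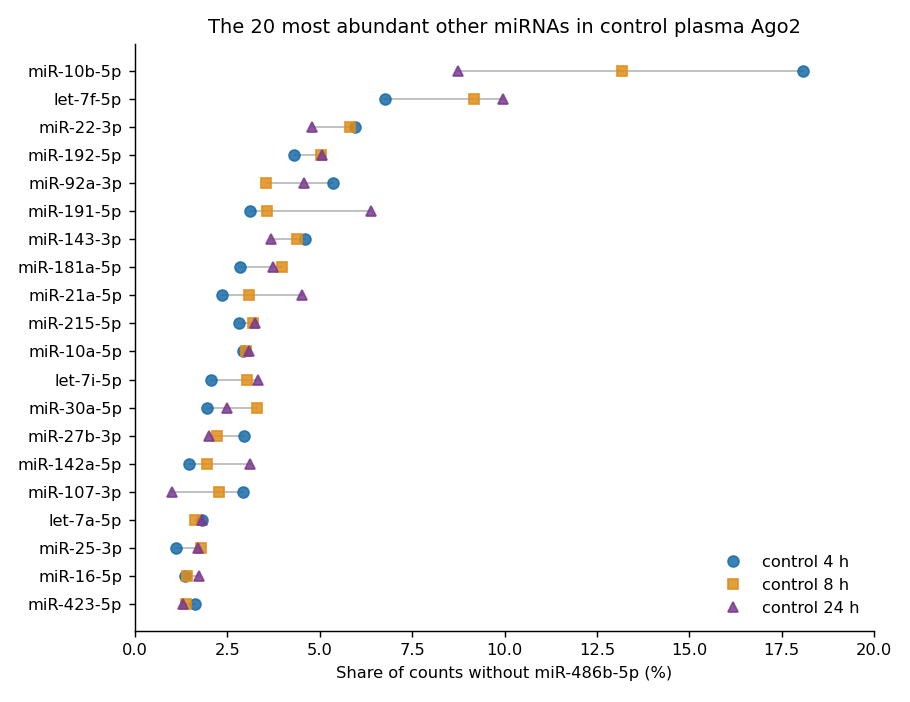
Share of counts without miR-486b-5p (percent, x axis) for the 20 most abundant other miRNAs in control plasma, with 1 point per library at 4, 8 and 24 h. miR-10b-5p runs from 8.75% at 24 h to 18.1% at 4 h, while miR-215-5p and miR-10a-5p have 3 nearly coinciding points.

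The plot of shares shows that the spread between libraries differed among neighbours in the order. miR-10b-5p, transcribed from the Hoxd cluster (chromosome 2, 74726070 to 74726137, plus strand, in introns of Hoxd3 and Hoxd4), held 18.1%, 13.2% and 8.75% of the remaining counts at 4, 8 and 24 h. let-7f-5p, from hairpins on chromosome 13 (48537829 to 48537917, minus strand) and on chromosome X in an intron of Huwe1, held 6.78%, 9.18% and 9.97%. The order of these miRNAs therefore turned over: miR-10b-5p was the second most abundant miRNA at 4 and 8 h and let-7f-5p took that rank at 24 h. miR-22-3p (chromosome 11, 75463716 to 75463810, plus strand, an exon of Mir22hg), a widely expressed miRNA, held 5.95%, 5.83% and 4.80% and ranked 4, 4 and 6.

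Below these, several neighbours could not be ordered. miR-192-5p, known from liver and gut, held 4.29%, 5.04% and 5.06%, with ranks 7, 5 and 5. miR-92a-3p, a member of the miR-17-92 cluster, held 5.37%, 3.55% and 4.57%, with ranks 5, 9 and 7. miR-143-3p, known from smooth muscle, held 4.61%, 4.38% and 3.69%, with ranks 6, 6 and 10. Their ranges over the libraries overlapped. miR-191-5p (chromosome 9, 108568319 to 108568392, plus strand) gained the most share among the 10 highest, with 3.12%, 3.56% and 6.40% and ranks 8, 8 and 4. miR-21a-5p, widely expressed and known to rise in injured tissue, moved the same way, with 2.36%, 3.08% and 4.53% and ranks 14, 12 and 8. miR-181a-5p, miR-215-5p, miR-10a-5p, let-7i-5p, miR-30a-5p, miR-27b-3p and miR-142a-5p filled the following places, each with between 1.47% and 3.97% of the remaining counts.

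Summed by seed, the miR-10 family (seed ACCCUGU) and the let-7 family (seed GAGGUAG) led. The miR-10 family held 21.0%, 16.2% and 11.8% of the remaining counts at 4, 8 and 24 h, and the let-7 family 12.7%, 15.8% and 17.5%. The miR-10 family was the larger at 4 and 8 h and the let-7 family at 24 h. The miR-192/215 family held 7.12%, 8.23% and 8.31%, the miR-25/92 family 6.85%, 5.57% and 6.40%, and the miR-181 family 3.49%, 4.64% and 4.56%. The 5 largest, which are the first 4 named here and the family of miR-22-3p, together held between 48.8% and 53.7%. The miRNAs kept for the comparison of libraries with a reference sequence fell into 62 families, of which 4 had 3 or more such members.

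**Figure D2:**
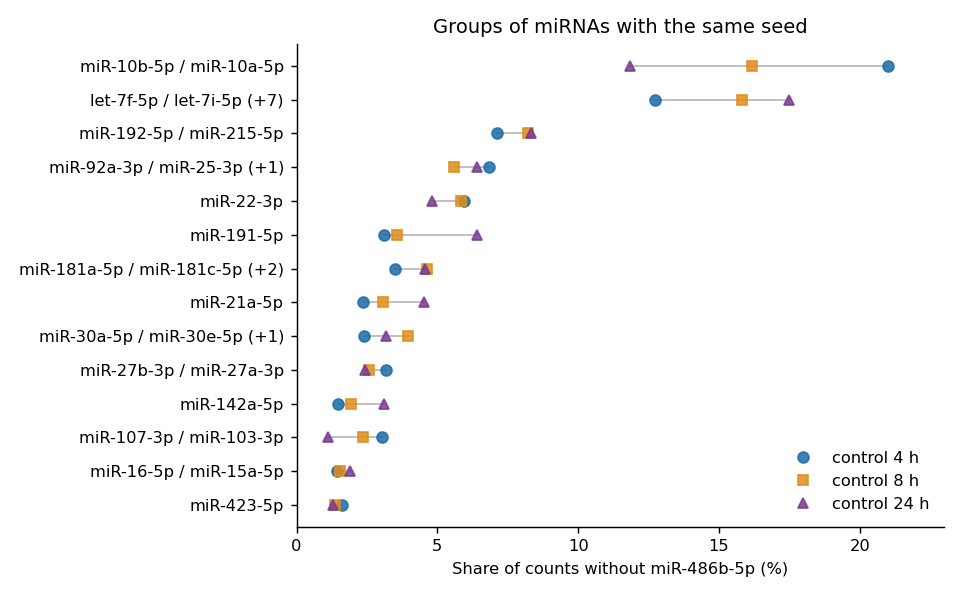
Share of counts without miR-486b-5p (percent) held by the largest seed families in control 4, 8 and 24 h libraries. The miR-10 family goes from 21.0% to 11.8% and the let-7 family goes from 12.7% to 17.5% across the 3 libraries, and the miR-192/215 family stays between 7.12% and 8.31%.

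Guides with a 5′-terminal U carried 63.6%, 61.1% and 59.6% of the remaining counts that had a reference sequence, although U began 40.7% of the 551 sequences. G, which began 11.4% of the sequences, carried 1.95%, 1.65% and 1.31% of counts. A, which began 25.05% of the sequences, carried 19.6%, 20.05% and 17.4% at 4, 8 and 24 h, less than its part of the sequences. Sequences starting with C, 22.9% of the 551, carried 14.8%, 17.2% and 21.7%, among them miR-192-5p and miR-191-5p. Mammalian Ago2 is known to hold a 5′-terminal U or A more readily than G or C. Here U alone carried more than its part of the sequences, and at 24 h A carried less than C. Whether this preference of Ago2 set the shares was not tested. The 5p arm carried 61.6%, 65.6% and 69.3% of the remaining counts and the 3p arm 34.1%, 30.9% and 28.0%.

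The steadiness of single miRNAs was read from 107 miRNAs with at least 50 CPM in all 3 control libraries, which held 97.5% to 98.0% of counts other than miR-486b-5p. A further 29 reached 50 CPM in 2 libraries and 41 in 1. Just inside the limit was miR-127-3p, whose lowest level was 50.7 CPM, and just outside it was miR-125b-5p, whose lowest was 49.5 CPM. Levels are from here on CPM of library sizes adjusted by TMM, a scaling that sets aside the most extreme miRNAs. The measure is the highest of the 3 levels divided by the lowest. A miRNA was called steady at a ratio of at most 1.5 and variable at a ratio of at least 3.

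Of the 107 miRNAs, 35 were steady (32.7%), 12 were variable (11.2%) and 60 were in between, and the median ratio was 1.74. At the limits, let-7f-5p was just inside the steady group at 1.495 and miR-320-3p just outside at 1.52, and miR-99b-5p was just inside the variable group at 3.14 and miR-107-3p just outside at 2.87. The steady miRNAs held 47.2%, 50.5% and 49.2% of the remaining counts and the variable ones 1.80%, 1.25% and 0.928%. The intermediate ones other than miR-486b-5p held 48.6%, 45.8% and 48.0%, so steady and intermediate miRNAs carried like parts of the remaining counts. miR-486b-5p, which held most of all counts and is left out of these shares, was itself intermediate. Scaled by the plain total instead, miRNAs shifted together by 0.44 in log2 between control 4 h and 24 h and by 0.52 between 4 h and 8 h. Under that scaling 34 miRNAs were steady and 13 variable, but 21 of the 35 steady and 7 of the 12 variable miRNAs kept their class. With control 4 h left out 67 miRNAs were steady and 3 variable, and with control 24 h left out 67 and 4. A maximum over fewer libraries is lower by construction.

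**Figure D3:**
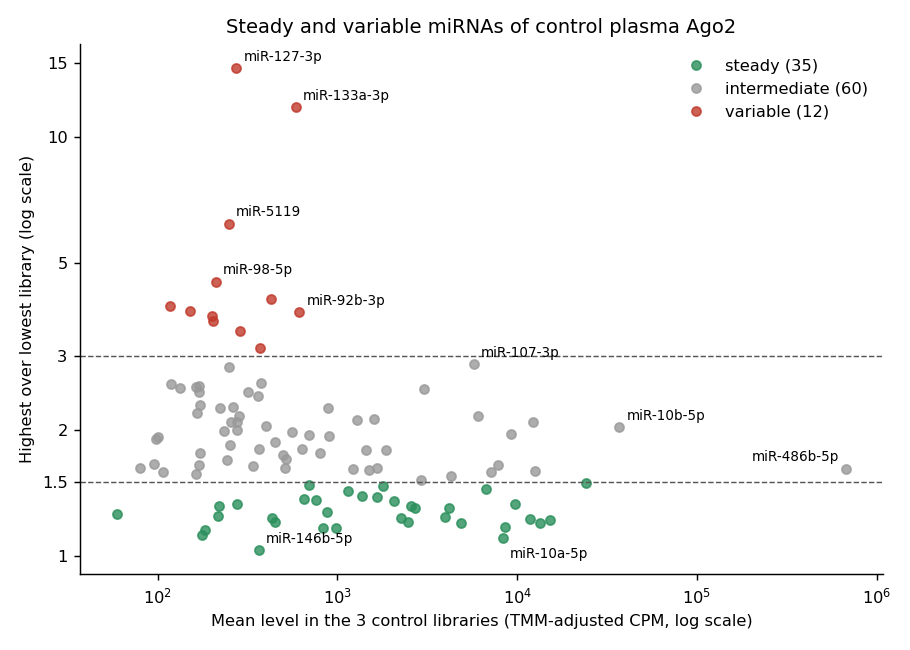
Highest over lowest level in the 3 control libraries (y axis, log scale) against mean level (CPM, x axis, log scale) for 107 miRNAs, with lines at ratios of 1.5 and 3. The variable miRNAs lie at low and middle levels, and miR-127-3p and miR-133a-3p stand highest at 14.6 and 11.8.

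Steadiness went with abundance, as the plot of ratio against level shows. Among the 36 most abundant miRNAs 19 were steady and 0 variable, with a median ratio of 1.48. Among the 35 of middle level 10 were steady and 5 variable, with a median of 1.80. Among the 36 least abundant 6 were steady and 7 variable, with a median of 2.09. The number of estimated molecules moved with this. Of 54 miRNAs with at least 10 estimated molecules in every library 26 were steady and 1, miR-92b-3p, was variable. Of the 53 below that number 9 were steady and 11 variable. On estimated molecules, the exact conditional 95% interval of the ratio lay above 1.5 for 0 steady, 8 intermediate and 4 variable miRNAs. The 0 follows from the steady limit, since each interval holds its own ratio. The highest and lowest library were picked for each miRNA from its values, so sampling alone also gives ratios above 1, and the intervals are a description and not a test.

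Abundant steady miRNAs formed a recognisable core. miR-10a-5p had 8191, 7976 and 8804 CPM at 4, 8 and 24 h, a ratio of 1.10 with an interval of 0.984 to 1.24. Its hairpin lies in the Hoxb cluster region of chromosome 11 (96317165 to 96317274, plus strand). miR-215-5p (chromosome 1, 185313581 to 185313692, plus strand) had 7932, 8496 and 9274 CPM, a ratio of 1.17. miR-192-5p (chromosome 19, 6264844 to 6264932, plus strand), which shares its seed, had 12050, 13410 and 14443 CPM, a ratio of 1.20. Both were lowest in control 4 h and highest in control 24 h, by less than the steady limit, but by the plain total their ratios were 1.59 and 1.63. miR-22-3p had 16694, 15510 and 13689 CPM (1.22) and miR-143-3p had 12938, 11666 and 10544 CPM (1.23), each with its highest level at 4 h.

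Several other miRNAs with low ratios stood on few estimated molecules. miR-146b-5p, an immune-regulated miRNA, had the lowest ratio of the 107, with 371, 360 and 366 CPM and a ratio of 1.03. It stood on 6.33 estimated molecules in control 4 h, and the interval of its ratio was 0.358 to 2.52. miR-425-5p (180, 164 and 183 CPM), miR-19b-3p (193, 167 and 193 CPM) and miR-221-3p (446, 405 and 488 CPM) had ratios between 1.12 and 1.20. Their closeness was finer than the sampling could resolve. miR-181b-5p (849, 882 and 759 CPM), miR-101a-3p (1013, 1031 and 885 CPM) and let-7a-5p (5088, 4351 and 5218 CPM) had ratios of 1.16, 1.16 and 1.20. Their lowest numbers of estimated molecules in a library were 14.5, 17.3 and 86.7, so let-7a-5p was well counted.

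Abundance alone did not make a miRNA steady. miR-10b-5p had 50762, 35090 and 24971 CPM, a ratio of 2.03 with an interval of 1.87 to 2.21. It was lower at each later time-point, while miR-10a-5p, 1 base different, was level. By the plain total the ratio of miR-10b-5p was 1.499, just inside the steady limit. miR-107-3p (chromosome 19, 34820687 to 34820773, minus strand, in an intron of Pank1) had 8231, 6095 and 2864 CPM, a ratio of 2.87 with an interval of 2.30 to 3.58. Its near copy miR-103-3p, also from introns of Pank genes, was far lower and steady, with 285, 231 and 308 CPM. The sequences of this pair differ at 1 base.
miR-107-3p: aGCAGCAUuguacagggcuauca
miR-103-3p: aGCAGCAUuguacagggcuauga

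miR-191-5p, miR-21a-5p, miR-142a-5p and miR-26a-5p went the other way and were highest in control 24 h. miR-191-5p had 8764, 9484 and 18263 CPM (ratio 2.08), and miR-21a-5p had 6618, 8194 and 12939 CPM (1.96). miR-26a-5p, a widely expressed miRNA, had 1886, 2540 and 4715 CPM (2.50, interval 1.74 to 3.71). The hairpin of miR-191-5p lies in an exon of the lincRNA 4833445I07Rik together with that of miR-425-5p (chromosome 9, 108568777 to 108568861, plus strand), whose level was steady. miR-486b-5p itself had 891856, 552303 and 579385 CPM, a ratio of 1.61 under TMM and 1.14 by the plain total, so its class depended on the scaling.

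The 12 variable miRNAs were all of modest level and most were highest in control 4 h. For 8 of them control 4 h was the highest library and for 4 it was control 24 h. Over the 107 miRNAs 43 were highest at 4 h, 14 at 8 h and 50 at 24 h. The sequences of the variable miRNAs described here are shown with their seeds.
miR-127-3p: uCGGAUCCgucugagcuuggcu
miR-99b-5p: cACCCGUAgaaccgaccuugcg
miR-186-5p: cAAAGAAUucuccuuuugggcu
miR-142a-3p: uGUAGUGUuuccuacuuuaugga
miR-98-5p: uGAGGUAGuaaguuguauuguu
miR-127-3p, from the imprinted Dlk1-Dio3 region (chromosome 12, 109592846 to 109592915, plus strand), had 640, 137 and 43.8 CPM, a ratio of 14.6 with an interval of 3.93 to 78.0. miR-133a-3p, a miRNA of skeletal and heart muscle, had 888, 793 and 75.5 CPM, a ratio of 11.8 with an interval of 4.18 to 39.3. miR-127-3p was lower at each later time-point, whereas miR-133a-3p was level at 4 and 8 h and low at 24 h. miR-92b-3p (chromosome 3, 89227116 to 89227198, minus strand) had 991, 586 and 260 CPM (3.81, interval 1.85 to 7.79), while miR-92a-3p with the same seed had 15084, 9446 and 13057 CPM (1.60).

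**Figure D4:**
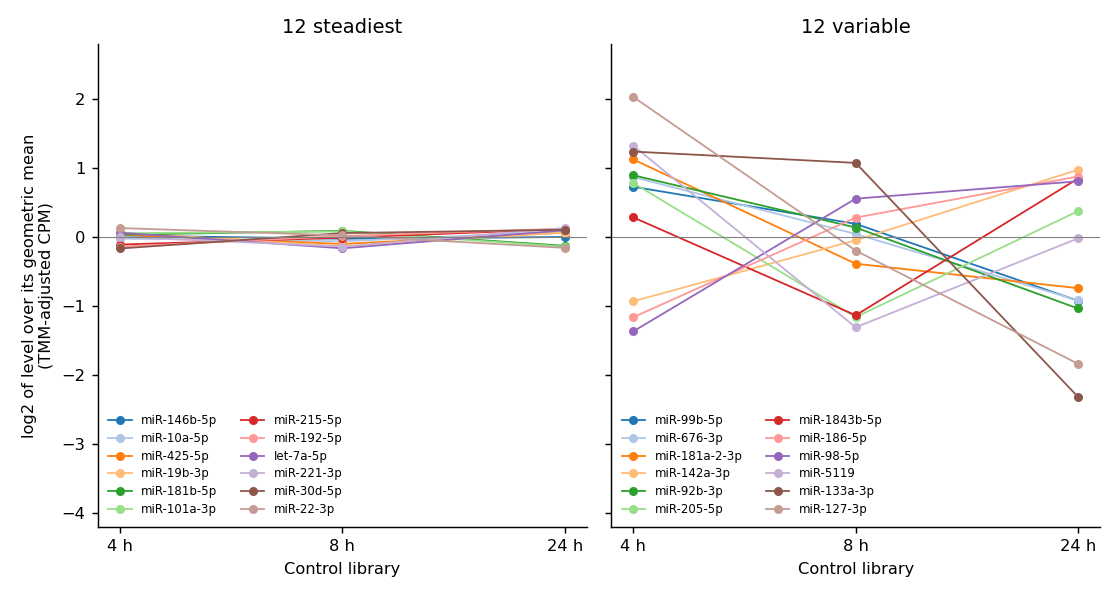
Level of each miRNA over its own geometric mean (log2, y axis) in control 4, 8 and 24 h, for the 12 miRNAs with the lowest ratio and the 12 variable ones, with lines joining the libraries of a miRNA. The steady set runs flat, and in the variable set miR-127-3p goes from 640 to 43.8 CPM while miR-186-5p goes from 163 to 670 CPM.

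The plot of profiles shows both directions. miR-181a-2-3p (374, 131 and 103 CPM), miR-676-3p (461, 260 and 134 CPM) and miR-99b-5p (554, 382 and 176 CPM) were highest at 4 h and lowest at 24 h. miR-186-5p (163, 443 and 670 CPM), miR-142a-3p (90.7, 167 and 340 CPM) and the let-7 family member miR-98-5p (67.7, 257 and 306 CPM) ran the opposite way. These last 3 had between 1.15 and 2.78 estimated molecules in control 4 h. miR-5119 (478, 77.0 and 188 CPM), miR-205-5p (227, 58.9 and 171 CPM) and miR-1843b-5p (123, 45.9 and 181 CPM) were lowest at 8 h. The 7 variable miRNAs that stayed variable under each of the 5 scalings were miR-127-3p, miR-133a-3p, miR-5119, miR-98-5p, miR-186-5p, miR-1843b-5p and miR-142a-3p. A change of scaling leaves sampling error as it was. On estimated molecules the interval of the ratio was 0.802 to 123 for miR-98-5p and 0.806 to 51.5 for miR-142a-3p. It lay above 1 for 9 of the 12 variable miRNAs.

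Members of a family did not keep a common ratio. In the let-7 family 9 of 11 members were kept, beside 107 of all 640 miRNAs. Of these members let-7a-5p, let-7c-5p, let-7g-5p, let-7b-5p and let-7f-5p were steady and miR-98-5p was variable. Over all 107 miRNAs 32.7% were steady and 11.2% variable. Ratios in the family ran from 1.20 to 4.52, with a median of 1.495 against 1.74 over all 107. Some members lie within 2 mismatches of each other and may exchange reads, so their classes are not independent. let-7f-5p supplied 56.9% of the family, and had 19029, 24444 and 28449 CPM, with a plain-total ratio of 2.03. let-7i-5p had 5789, 8056 and 9545 CPM (1.65), and let-7e-5p, in contrast, was highest at 4 h with 887, 492 and 527 CPM (1.80). In the miR-181 family miR-181a-5p (7995, 10561 and 10655 CPM) and miR-181b-5p were steady and miR-181c-5p (589, 752 and 1328 CPM) and miR-181d-5p (351, 155 and 284 CPM) were not. miR-30a-5p, miR-30e-5p and miR-30c-5p, grouped by their shared seed, had ratios from 1.57 to 1.60, each lowest at 4 h, so none of these was steady. miR-30d-5p and miR-30b-5p, related to these by name, had no reference sequence and so were not placed in a family. Their ratios were 1.21, which was steady, and 1.90. In the miR-25/92 family miR-25-3p had 3143, 4786 and 4877 CPM (1.55), so miR-92a-3p and miR-92b-3p were highest in the library where miR-25-3p was lowest.

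Where miRNAs came from neighbouring hairpins, 2 of the 6 clusters with at least 3 kept mature miRNAs had all members highest in the same library, beside 43, 14 and 50 of all 107 miRNAs that were highest at 4, 8 and 24 h. With 2 libraries holding most of the highest values some clusters share a library in any case, and nothing is read from the number. miR-99b-5p, let-7e-5p and miR-125a-5p (chromosome 17, 17830194 to 17830840, plus strand, at Spaca6) were all highest at 4 h, with ratios from 1.80 to 3.14. miR-25-3p, miR-93-5p and miR-106b-3p (chromosome 5, 138165332 to 138165767, minus strand, at Mcm7) were all highest at 24 h, with ratios from 1.24 to 1.94. In the miR-23a cluster of chromosome 8 (84208563 to 84208896, plus strand) miR-23a-3p was highest at 4 h and miR-27a-3p and miR-24-3p at 24 h. The clusters that hold let-7d, miR-181a-2 and miR-30e were mixed in the same way.

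For 8 hairpins both arms were kept. The ratio of arms was close between libraries for miR-30a, whose 5p arm exceeded the 3p arm 92.4, 90.6 and 85.5-fold, and for miR-423, with 3.47, 4.00 and 3.12-fold. It moved most for let-7d, where the 3p arm was 1.21 and 1.81-fold the 5p arm at 4 and 8 h but 0.644-fold at 24 h, so the leading arm changed. For miR-151 the 3p arm exceeded the 5p arm 21.8, 15.5 and 8.76-fold, with the 3p arm steady and the 5p arm at 108, 126 and 275 CPM. For miR-142a the 5p arm led 45.5, 31.0 and 26.2-fold and both arms were highest at 24 h.

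Lists of miRNAs known from tissues were read beside the whole count table, of which 107 of 640 miRNAs were kept. The lists are short, and nothing is read from the number of members kept. Of 6 leukocyte miRNAs 5 were kept, and their summed share of the remaining counts was 2.08%, 2.52% and 3.90% at 4, 8 and 24 h, with miR-142a-5p at 4127, 5182 and 8911 CPM making up most. miR-146a-5p and miR-146b-5p were the steady 2 of the list and miR-142a-3p was variable. The myeloid miR-223-3p had 164, 212 and 326 CPM, and both arms of the endothelial miR-126a were also highest at 24 h (miR-126a-5p 1091, 1290 and 1947 CPM). The other arm, miR-223-5p, had 1, 298 and 0 counts. Of liver and gut miRNAs miR-192-5p and miR-215-5p were abundant, but miR-122-5p, the main miRNA of hepatocytes, had 0 counts in each control library and miR-194-5p had 0, 0 and 45.

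Of the 3 muscle miRNAs counted only miR-133a-3p was kept, and miR-133b-3p had 56.8, 16.7 and 16.7 CPM. miR-208b-3p ran the other way, with 0, 14.4 and 24.6 CPM. The smooth muscle miR-143-3p was abundant, while miR-145a-5p from the same transcript had 90, 28 and 0 counts and miR-145a-3p 0, 42 and 0. Of 7 brain miRNAs counted miR-128-3p alone was kept, with 1072, 1431 and 2273 CPM (2.12). miR-124-3p, miR-9-3p and miR-129-5p had 0 counts in all 3, and miR-9-5p had 122, 111 and 1. In contrast, miR-138-5p had 0, 76 and 52 counts, and miR-219a-2-3p had 2, 0 and 0. The pancreatic islet miR-375-3p had 1586, 1098 and 983 CPM (1.61), while miR-216a-5p and miR-216b-5p, also listed for pancreas, had 0 counts in all 3. Of 6 epithelial miRNAs counted 3 were kept, of which miR-141-3p and miR-203-3p were intermediate and miR-205-5p variable. The others fell short, with 1, 126 and 178 counts for miR-200a-3p, 0, 1 and 0 for miR-200b-3p and 210, 238 and 2 for miR-429-3p. A count of 0 allows up to 3 reads, which is 1.47, 0.850 and 0.879 CPM of the plain total at 4, 8 and 24 h, but up to 3 estimated molecules would be 150, 51.1 and 48.4 CPM, so a miRNA at 0 may still have been present at such levels.

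Compared in pairs, adjacent libraries were nearest. The median absolute difference was 1.34-fold between 4 and 8 h, 1.31-fold between 8 and 24 h and 1.57-fold between 4 and 24 h. Rank correlations of levels across the 107 miRNAs, which share library scaling and are not independent, were 0.930, 0.923 and 0.864. From 4 to 24 h 31 miRNAs were at least 1.5-fold higher (29%) and 26 at least 1.5-fold lower (24.3%). From 4 to 8 h 16 were higher (15%) and 24 lower (22.4%), and from 8 to 24 h 26 were higher (24.3%) and 14 lower (13.1%).

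The base composition of a miRNA moved with the difference between 4 and 24 h. Across the 88 kept miRNAs with a sequence, the log2 ratio of 24 h over 4 h had a Pearson correlation of -0.42 and a Spearman correlation of -0.39 with GC content. The points share the same libraries and scaling. The 33 miRNAs highest at 4 h had a median GC content of 52.4% and the 43 highest at 24 h of 43.5%. The 19 miRNAs with a GC content of at least 55% had a median log2 ratio of -0.69, and the 13 below 40% had 0.48. The 12 from 50 to 55% had 0.53, so the relation was uneven. The correlation was -0.40 for 8 h over 4 h and -0.16 for 24 h over 8 h, and in the SE libraries it was -0.23 for 24 h over 4 h. miR-127-3p, miR-99b-5p and miR-92b-3p, all highest at 4 h, have 59.1%, 63.6% and 63.6% GC, and miR-142a-3p, miR-98-5p and miR-186-5p, highest at 24 h, have 34.8%, 31.8% and 40.9%. The part of base composition in these differences was not tested.

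**Figure D5:**
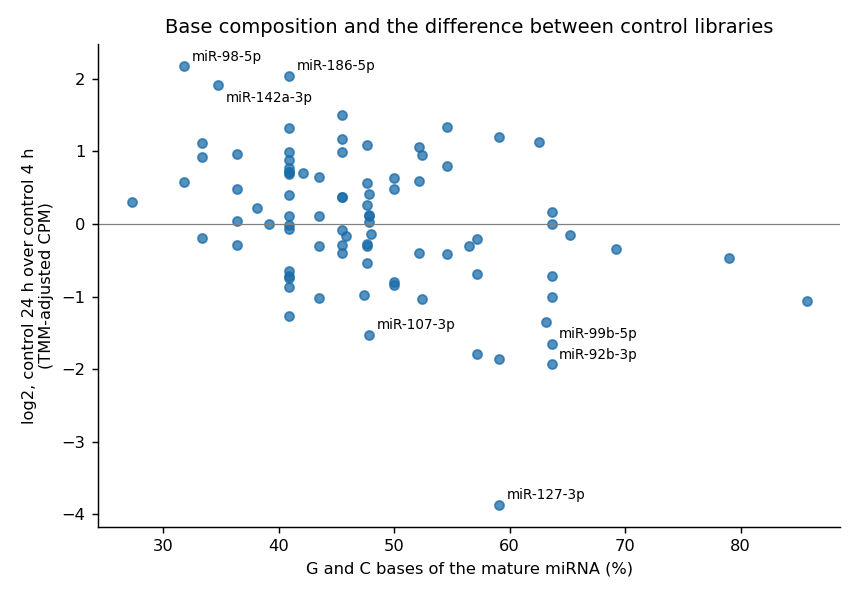
Log2 ratio of the level in control 24 h over control 4 h (y axis) against GC content of the mature sequence (percent, x axis) for 88 miRNAs. Points trend downward from left to right (Pearson correlation -0.42), and sequences of at least 55% GC have a median of -0.69.

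The composition was set beside that of the SE libraries for 4 single values, each by a two-sided exact permutation test over 3 control and 4 SE libraries, whose smallest possible p is 0.0571. The share of miR-486b-5p was 70.2% ± 5.10 (SD, n = 3) in controls and 67.4% ± 6.22 (n = 4) after SE (exact p = 0.629, adjusted 0.8). The 10 others most abundant in controls held 55.3% ± 0.806 of the remaining counts (n = 3) against 58.3% ± 1.38 (n = 4) after SE (exact p = 0.0571, adjusted 0.229), and the libraries of the 2 groups did not overlap. These 10 were picked from the control libraries and were not the 10 highest others in every SE library. The let-7 family held 15.3% ± 2.41 (n = 3) against 11.9% ± 3.72 (n = 4) (exact p = 0.229, adjusted 0.457). The number of miRNAs at 50 CPM was 140 ± 7.94 (n = 3) against 136 ± 12.8 (n = 4) (exact p = 0.8, adjusted 0.8). These SDs span different time-points, and the test treats the libraries of a group as exchangeable, which they are not by design. Within the 3 shared time-points the let-7 share was lower after SE by 3.32, 7.79 and 2.66 percentage points at 4, 8 and 24 h. The share of the 10 others picked from controls was higher after SE in 3 of 3. An exact paired permutation test over 3 pairs gave p = 0.25 for both, the smallest value it can give, p = 1 for the share of miR-486b-5p and p = 0.75 for the number of miRNAs at 50 CPM.

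The same 107 miRNAs over the SE libraries of 4, 8 and 24 h showed a spread of like size, with 39 at a ratio of at most 1.5 (36.4%), 16 at a ratio of at least 3 (15%) and a median of 1.68. Of the 35 steady in controls 14 had a ratio of at most 1.5 after SE and 6 of at least 3, and of the 12 variable 2 and 4. The rank correlation of both ratios over the 107 was 0.15. miR-215-5p, miR-181b-5p and miR-221-3p had SE ratios of 1.32, 1.36 and 1.18, whereas miR-143-3p had 41308 CPM in SE 4 h, above all controls, and an SE ratio of 3.20.

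As a range of normal values, the 3 controls held 72 of the 107 miRNAs in every SE library within 1.5-fold of their limits. For SE 4 h, 13 lay above the control range by at least 1.5-fold (12.1%) and 7 below (6.54%). For SE 8 h the numbers were 12 (11.2%) and 9 (8.41%), for SE 24 h 6 (5.61%) and 10 (9.35%), and for SE 2 weeks 1 (0.935%) and 3 (2.8%). Of the 35 steady miRNAs 19 stayed within in every SE library. A narrow control range is easier to leave, so these counts partly follow from the classes. miR-10a-5p, at 7976 to 8804 CPM in controls, had 20603 CPM in SE 4 h and 13870 in SE 8 h. miR-146b-5p, at 360 to 371 CPM in controls, had 227 in SE 8 h and 139 in SE 24 h. Its narrow control range stood on 6.33 estimated molecules in control 4 h, with a ratio interval of 0.358 to 2.52. miR-127-3p, with 505 CPM in SE 4 h and 929 in SE 8 h, lay within the 1.5-fold limits of its wide control range.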

How the data were processed

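Small RNA bound to Ago2 in mouse plasma was sequenced by the authors. In their Chimera run (version not given in the sources used here), size-selected reads were matched by BLASTn against mouse miRBase, and up to 2 mismatches were accepted. The deposited values are raw read counts per mature miRNA for 640 miRNAs in 7 libraries, 1 per condition. The submitters' processing notes also name edgeR and limma. No per-sample column was left unused.

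Shares, CPM and ranks used numpy 2.4.6, scipy 1.17.1 and pandas 2.3.3 under Python 3.11.15, with matplotlib 3.10.9 for figures. TMM factors over all 7 libraries came from edgeR 4.0.16 in R 4.3.3 (0.853, 1.22 and 1.16 for control 4, 8 and 24 h), and DESeq2 1.42.0 size factors were an alternative. The modal low count was the peak of a smoothed density (bandwidth 0.15, natural log) over counts between 6 and 300. Ratio intervals are exact conditional 95% intervals on counts divided by that value. The highest over the lowest of the 3 control levels set steady (at most 1.5), variable (at least 3) and intermediate classes. The steps were run on simulated counts with noise of single reads and large planted changes. Noise of the size that estimated molecules would give was not simulated, so the run does not show how reliable the classes are here.

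Named were the 15 miRNAs with the highest mean share, the 10 lowest and 10 highest ratios, members of seed families and of clusters (hairpins within 10 kb) with at least 3 kept miRNAs, hairpins with both arms kept and listed tissue miRNAs. miR-107-3p, miR-103-3p, miR-26a-5p, miR-125b-5p, miR-320-3p and miR-30b-5p were added after their values were seen, as was the relation to GC content. The members and lists were chosen with earlier results of these data known. Mature sequences are from RefSeq (GRCm38.p6) and hairpin positions from GENCODE for GRCm38. Of the listed tissue miRNAs, miR-1a-3p, miR-206-3p, miR-208a-3p, miR-499-5p, miR-122-3p, miR-219a-5p, miR-217-5p and miR-200c-3p were not analysed here. Permutation tests were exact, with Benjamini-Hochberg adjustment over the 4 values.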

Additional observations from a re-analysis of the deposited data

How the results depend on the processing

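No paired analysis was possible because the labels give no replicate numbers, with the exception of the control and SE libraries paired by time-point. This alternative was added after the data were seen. The mean differences (control minus SE) were 1.46 points for the share of miR-486b-5p and 5.33 miRNAs at 50 CPM. They were -2.88 points for the 10 others most abundant in controls and 4.59 points for the let-7 family. All were in the direction of the unpaired difference. Raising or lowering a limit changed the number of variable miRNAs most: 12 became 35 with a minimum of 10 CPM and 5 with 100 CPM, 37 with a fold limit of 2, and 1 among miRNAs with at least 10 estimated molecules in every library, an alternative added after the data were seen. The 35 steady miRNAs became 70 with a fold limit of 2. Leaving out 1 control library gave 50 to 67 steady and 3 to 9 variable miRNAs and a median ratio of 1.31 to 1.57, in place of 1.74, since a range over fewer libraries is narrower. A minimum of 10 CPM gave a median of 1.95. Over the 4 other scalings the steady number stayed between 34 and 37, the variable number between 12 and 13 and the median between 1.71 and 1.86. No miRNA changed from steady to variable or back. For 34 named miRNAs under these scalings the ratio stayed inside its counting interval in 120 cases and left it in 16, which follows the width of the interval and not the class: by the plain total 5 of 12 variable miRNAs, among them miR-99b-5p and miR-676-3p, were no longer variable. Depth limits miRNAs near 50 CPM in control 4 h, where that level is about 1 estimated molecule.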

Other observations

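Several miRNAs were counted well in a pair of control libraries and hardly at all in the other. Besides miR-144-3p and miR-144-5p, miR-222-3p had 0, 369 and 966 counts at 4, 8 and 24 h, miR-181c-3p had 0, 338 and 355, miR-15b-5p had 0, 199 and 241, and miR-215-3p had 1, 654 and 305. In all, 8 miRNAs had at most 3 counts in control 4 h and at least 50 CPM in both others, and 3 had at most 3 counts in control 24 h and at least 50 CPM in both others. In contrast to miR-222-3p, its cluster partner miR-221-3p was steady. These miRNAs were chosen after their values were seen, and 3 estimated molecules in control 4 h would be 150 CPM.

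Those missing from control 24 h included miR-434-3p (699, 444 and 1 counts) and miR-300-3p (116, 185 and 1 counts), which lie with miR-127-3p in the imprinted Dlk1-Dio3 region of chromosome 12 (109544588 to 109747949, plus strand, GRCm38). Of 41 miRNAs of this region in the count table, 23 had a count in some control library and 9 had at least 50 CPM in 1 or more. In control 4 h 8 of them passed that level beside 149 of all miRNAs, in control 8 h 6 beside 137 and in control 24 h 1 beside 134. Most of the 9 thus passed through the library where they were high, so their direction is no result. Of the 23 counted miRNAs 12 were higher in control 4 h and 3 in control 24 h, and the rest were at 0 in both. Over all miRNAs with at least 50 CPM in some control library, a stricter limit, 98 of 177 were higher in control 4 h than in control 24 h. Nothing is read from the number 12. Their region's summed level was 2216, 719 and 229 CPM at 4, 8 and 24 h in controls, and 1920, 2589 and 847 CPM at 4, 8 and 24 h after SE with 255 CPM at 2 weeks. The region was chosen after the value of miR-127-3p was seen, and the 9 miRNAs lie in the same region and strand and are not independent observations.

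Entries numbered 1000 or above held 4.28%, 3.66% and 3.0% of counts other than miR-486b-5p. Of the 12 kept, 4 were steady and 2 variable, with a median ratio of 1.87, beside 32.7% steady, 11.2% variable and a median of 1.74 over all 107.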
